A study of Homo sapiens with 6 samples.

Results

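The mitochondrial genome transcripts are the 37 genes that mammalian mitochondrial DNA encodes, made up of 13 mRNAs, 2 rRNAs and 22 tRNAs. They were taken by gene identifier from a fixed list, with no cut on their measured values. The list was chosen with earlier results of these data known. All 37 identifiers were found among the 54532 in each library's table, and 31 of them had a value above 0 in at least 1 library. The 3 classes were kept apart throughout, since mRNAs, rRNAs and tRNAs enter a sequencing library differently.

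Mitochondrial DNA is a small circle that a dedicated RNA polymerase, POLRMT, transcribes with the help of the factors TFAM and TFB2M. Each strand gives long precursors that carry many genes, and tRNAs standing between the other genes are cut out to free the mRNAs and rRNAs. The mRNAs all encode membrane subunits of the respiratory chain and the ATP synthase, the rRNAs build the mitochondrial ribosome, and the tRNAs serve translation inside the organelle. Levels of the separate RNAs then depend on how stable each one is as well as on transcription, and the 2 contributions cannot be told apart in a single measurement of abundance.

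The study measured total RNA by sequencing in A549, a human lung adenocarcinoma cell line, after knockdown of a gene written DSTY in the series title. Its 6 libraries carry the names NC, sh1 and sh4, with replicates 1 and 2 of each, and the labels do not spell these names out. The 3 groups are called here by those names; from the series title, sh1 and sh4 were read as the knockdown groups and NC as their control. The labels give no vector, time, selection or clone, and nothing says that replicates came from separate cultures, so the p-values below measure the spread between these libraries, which may be technical. All groups share the A549 label and the Trizol extraction, and all comparisons with NC use the same 2 NC libraries.

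The identifiers and the labels did not match in species. All 54532 identifiers were of the mouse Ensembl series and 0 of the human one, although the labels name a human cell line and the submitters' processing notes name the human build hg18. The values are FPKM (fragments scaled by gene length and library size). They could be rebuilt exactly from whole reads divided by a whole gene length. The length taken for each gene is the shortest whole length that fits, and multiples of it would fit as well. Of the 31 mitochondrial genes with a recoverable length, 18 differed from the length of the same human gene in GENCODE 29. For mt-Rnr2 the length was 1582 bases against 1559 in human, for mt-Nd5 1824 against 1812, and for mt-Atp8 204 against 207. The order and strand of the 37 genes are the same in both species. The libraries are therefore given by their labels, and the species of the cells was not settled. The targeted gene and nuclear genes were not analysed here, since no table used here pairs the mouse identifiers with symbols, and the defining markers of A549 cells could not be read for the same reason.

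Recovered depth lay between 14999784 and 18011797 reads a library, and between 11826 and 11972 identifiers reached 1 FPKM. In the main test, 65.5% of the 12755 tested identifiers passed the threshold in sh1 against NC, and 68.2% did in sh4 against NC, so a called change was the common outcome in this series. Bulk RNA cannot separate more mitochondrial RNA in each cell from a change in which cells were present.

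The mitochondrial mRNAs spanned almost the whole range of expression. mt-Co1 (ENSMUSG00000064351), the catalytic subunit of complex IV (cytochrome c oxidase), stood highest, with 3925 and 4824 FPKM in the 2 NC libraries, 6295 and 6817 in sh1, and 5190 and 5265 in sh4. It ranked between 2 and 5 among all identifiers in every library. mt-Cytb (ENSMUSG00000064370), the cytochrome b subunit of complex III, followed with 1334 and 1767 FPKM in NC, 2936 and 3204 in sh1, and 2551 and 2837 in sh4. Both knockdown groups lay wholly above NC for these 2 genes. At the other end, mt-Atp8, an accessory subunit of the ATP synthase, had 0 reads in both NC libraries, 2 and 2 in sh1, and 4 and 1 in sh4. mt-Atp8 did not reach 1 FPKM in at least 2 libraries, so it was left out of the main test. A count of 0 allows up to 3 reads in a library, and no fold is given for mt-Atp8.

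**Figure D1:**
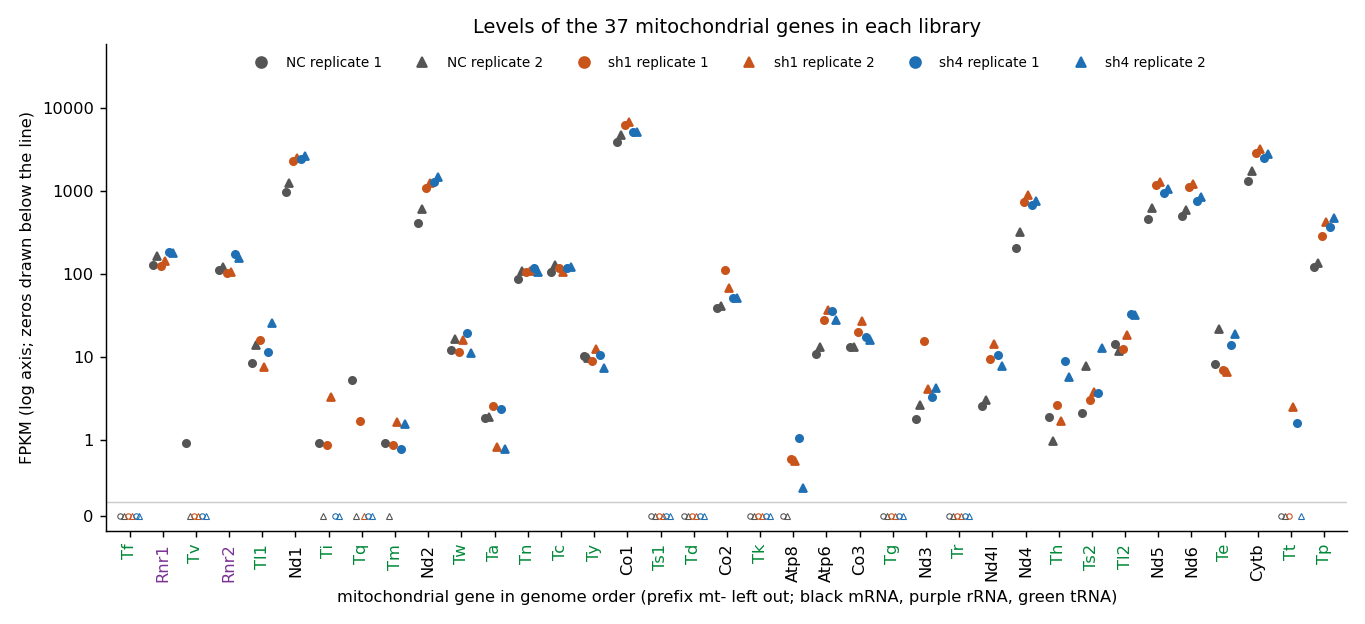
FPKM of the 37 mitochondrial genes in genome order on a log axis, with 1 point for each of the 6 libraries and zeros drawn below the line. mt-Co1 reached 6817 FPKM, whereas the 6 mRNAs from mt-Co2 to mt-Nd4l stayed at or below 112.7 FPKM in every library.

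The levels fell into 2 ranges by position. The 6 mRNAs that lie next to each other from mt-Co2 to mt-Nd4l (mt-Co2, mt-Atp8, mt-Atp6, mt-Co3, mt-Nd3 and mt-Nd4l) had a mean sum of 71.0 FPKM in the NC libraries, 169 FPKM in those of sh1 and 114 FPKM in those of sh4. The other 7 mRNAs summed to 8924, 16495 and 14418 FPKM. mt-Co2 and mt-Co3, subunits of the same complex as mt-Co1, stood far below it: mt-Co1 over mt-Co2 was 99.7 and 116 in NC, 55.9 and 99.9 in sh1, and 99.5 and 102 in sh4. Reads from near-identical copies of mitochondrial sequence in the nucleus can be split or dropped in counting, and mt-Atp8 overlaps mt-Atp6 as mt-Nd4l overlaps mt-Nd4. How the counting treated such reads is not given in the sources used here, and its part in these levels was not tested.

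Summed over the class, mitochondrial mRNA was higher in both knockdown groups. The 13 mRNAs together held 2.39% and 2.92% of the FPKM sum in the NC libraries, 4.47% and 4.85% in sh1, and 4.21% and 4.65% in sh4. Their summed level was 8995 ± 1536 FPKM (SD, n = 2) in NC, 16664 ± 1097 in sh1 and 14532 ± 741 in sh4, which is 1.85 and 1.62 times the NC mean. For the 2 rRNAs the sum was 267 ± 32.2 FPKM in the NC libraries, 241 ± 15.5 FPKM in those of sh1 and 349 ± 15.0 FPKM in those of sh4. The tRNAs summed to 421 ± 55.0, 652 ± 102 and 774 ± 76.9 FPKM, and without mt-Tp they summed to 291 FPKM in NC, whereas sh1 had 292 and sh4 345 FPKM.

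**Figure D2:**
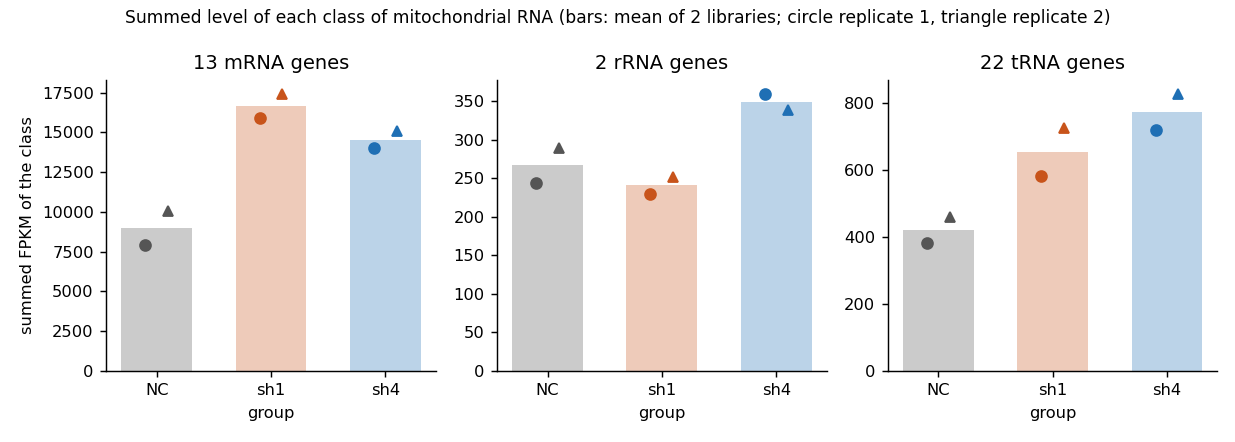
Summed FPKM of the mRNA, rRNA and tRNA classes in each group, with bars at the mean of 2 libraries and a point for each library. The mRNA sums of sh1 and sh4 lie above both NC libraries, while the rRNA sums of sh1 (230 and 252 FPKM) overlap those of NC (244 and 289 FPKM).

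In the test of single genes, 12 of the 13 mRNAs reached 1 FPKM in at least 2 libraries, all but mt-Atp8. In sh1, 11 of these 12 were higher than in NC and 0 lower, where 32.4% of all tested identifiers were higher. In sh4, 9 of 12 were higher and 0 lower, where the share over all identifiers was 35.0%. A rise of at least 1 log2 unit was found for 8 of 12 in sh1 and 5 of 12 in sh4, against 5.67% and 5.90% of all identifiers. Strongly expressed identifiers were called higher more often. Of the 430 with a mean of at least 100 FPKM, 52.1% were higher in sh1 and 44.2% in sh4. By at least 1 log2 unit, 8.84% and 8.60% were higher. Those 430 include the mRNAs outside the run from mt-Co2 to mt-Nd4l, and the mRNAs within that run lie below this level. The median log2 fold change of the 12 mRNAs was 1.16 in sh1 and 0.85 in sh4, beside −0.01 and 0.01 over all identifiers. For the mean of sh1 and sh4 against NC, 11 of 12 were higher, beside 35.0% of all identifiers, and 6 of 12 by at least 1 log2 unit, beside 4.92%. Without sh4 replicate 1 the sh4 count was 4 of 12, and without sh4 replicate 2 it was also 4. The calls that held in both cases were those of mt-Nd1, mt-Nd4l, mt-Nd6 and mt-Atp6.

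**Figure D3:**
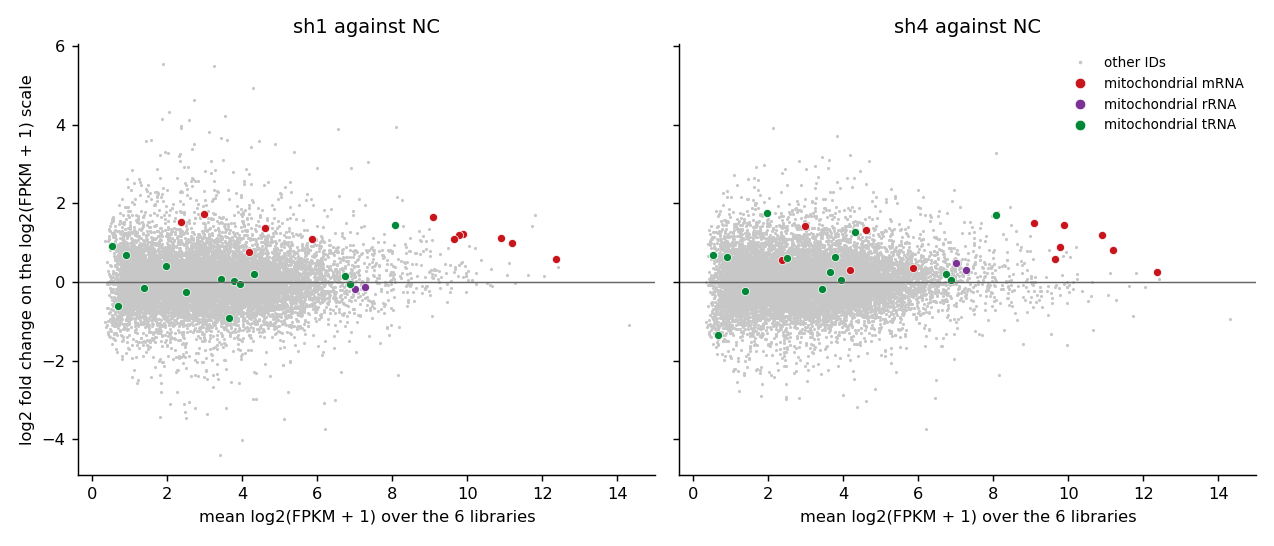
Log2 fold change against mean log2(FPKM + 1) for all 12755 tested identifiers, with the mitochondrial genes marked by class, for sh1 and sh4 against NC. The 12 tested mRNAs all lie above 0 in both panels, from 0.59 to 1.73 in sh1 and from 0.26 to 1.49 in sh4.

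Complex I takes electrons from NADH, and its membrane arm holds the proteins of 7 mitochondrial mRNAs. Summed over these, the level was 2.29 times NC in sh1 and 2.17 times in sh4. mt-Nd1 (ENSMUSG00000064341), whose protein sits where the membrane arm meets the hydrophilic arm, measured 988 and 1254 FPKM in NC, 2295 and 2555 in sh1, and 2441 and 2645 in sh4. The 3 groups separated into NC and the rest, with log2 fold changes of 1.12 (SE 0.14, limma adjusted p = 0.00205) in sh1 and 1.19 (SE 0.14, adjusted p = 0.00162) in sh4. mt-Nd2, an antiporter-like subunit, measured 420 and 610 FPKM in NC, 1098 and 1275 in sh1, and 1298 and 1491 in sh4. It rose by 1.22 (adjusted p = 0.0200) and 1.46 (adjusted p = 0.0120) on the log2 scale. The mt-Nd2 calls were narrow when single libraries were left out. The sh1 call was lost without either sh1 library (fold changes 1.33 and 1.115) or either sh4 library, where the fold change was unchanged. The sh4 call was lost without either sh4 library. In the other alternatives both held, 12 of 16 for sh1 and 14 of 16 for sh4. With all 6 libraries the sh1 adjusted p lay between 1.44e-05 (replicate block) and 0.02375 (scaling by total reads).

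mt-Nd4 and mt-Nd5 encode the other large antiporter-like subunits. mt-Nd4 measured 209 and 322 FPKM in NC, 752 and 910 in sh1, and 695 and 771 in sh4. It rose by 1.67 (SE 0.28, adjusted p = 0.0129) and 1.49 (adjusted p = 0.0169). mt-Nd5 measured 461 and 634 FPKM in NC, 1200 and 1297 in sh1, and 944 and 1074 in sh4, and rose by 1.20 (adjusted p = 0.0108) and 0.90 (adjusted p = 0.0239). Without sh4 replicate 1 or 2 the sh4 adjusted p became 0.0791 or 0.0924 for mt-Nd4 and 0.0872 or 0.123 for mt-Nd5, and without sh1 replicate 2 the sh1 value for mt-Nd4 was 0.0633. The small mRNA mt-Nd4l rose by 1.73 (adjusted p = 6.3e-06) and 1.42 (adjusted p = 3.91e-05), on 12 and 14 reads in NC, 47 and 75 in sh1, and 59 and 43 in sh4. mt-Nd3 did not pass the test in either group, with fold changes of 1.52 in sh1 (adjusted p = 0.0714) and 0.56 in sh4 (adjusted p = 0.435). Its reads were 10 and 14 in NC, 90 and 25 in sh1, and 21 and 27 in sh4, so the 2 sh1 libraries lay far apart. Without sh1 replicate 2 the mt-Nd3 fold change in sh1 was 2.37, and without sh1 replicate 1 it was 0.67. The sh4 fold change of mt-Nd3 stayed at 0.56 without sh1 replicate 2, a library outside that comparison. Leaving that library out lowered the estimated spread, and mt-Nd3 then passed in sh1 and in sh4. With all 6 libraries, mt-Nd3 passed in sh1 with a pseudocount of 0.1 (1.82, adjusted p = 0.00693), the filter at a mean of 5 FPKM (adjusted p = 0.00749) or no robust option (adjusted p = 0.00867).

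mt-Nd6 is the one mRNA of the light strand, so it comes from the opposite precursor to the other 12 mRNAs. It measured 503 and 594 FPKM in NC, 1126 and 1230 in sh1, and 771 and 865 in sh4, and the 3 groups did not overlap. It rose by 1.10 (SE 0.09, adjusted p = 9.46e-06) in sh1 and by 0.58 (adjusted p = 0.000524) in sh4. Its ratio to mt-Nd5, which lies next to it on the other strand, was 1.09 and 0.94 in NC, 0.94 and 0.95 in sh1, and 0.82 and 0.80 in sh4. Without a stated strand setting, reads of a gene and of antisense RNA across it cannot be told apart.

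Complex III passes electrons on to cytochrome c, and mt-Cytb is its one mitochondrial subunit. The mt-Cytb level rose by 1.00 on the log2 scale in sh1 (SE 0.17, adjusted p = 0.0103) and by 0.81 in sh4 (adjusted p = 0.0184). The sh4 adjusted p for mt-Cytb was 0.0849 without sh4 replicate 1 and 0.116 without sh4 replicate 2.

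Complex IV reduces oxygen, and 3 of its subunits are mitochondrially encoded. The summed level of their mRNAs was 1.51 times NC in sh1 and 1.20 times in sh4, a sum that is nearly all mt-Co1 (6556 of 6670 FPKM in sh1). Taken singly, the mean level in sh1 over that in NC was 1.499 for mt-Co1, 2.24 for mt-Co2 and 1.76 for mt-Co3. mt-Co1 rose by 0.59 (SE 0.10, adjusted p = 0.00338) in sh1. In sh4 the mt-Co1 fold change was 0.26 (adjusted p = 0.0638, 95% interval 0.01 to 0.52), which did not pass. mt-Co2, the subunit that receives electrons from cytochrome c, measured 39.4 and 41.6 FPKM in NC, 113 and 68.2 in sh1, and 52.2 and 51.8 in sh4. It rose by 1.10 (adjusted p = 0.0197) in sh1, with its 2 libraries far apart, and its fold change of 0.35 in sh4 did not pass (adjusted p = 0.285, 95% interval −0.34 to 1.05). mt-Co3, another core subunit, measured 13.4 and 13.3 FPKM in NC, 19.9 and 27.1 in sh1, and 17.5 and 15.9 in sh4. It rose by 0.76 (adjusted p = 0.000102) in sh1 and by 0.30 (adjusted p = 0.0415) in sh4.

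Several of the complex IV calls turned on single libraries or on the settings of the test. Leaving out a library outside a comparison changed the estimated spread and not the fold change. For example, mt-Co1 in sh1 stayed at 0.59 without either sh4 library. The mt-Co1 call in sh1 missed the threshold without sh4 replicate 1 or 2 (adjusted p = 0.0556 or 0.0572), and mt-Co1 in sh4 passed without NC replicate 2 (0.41, adjusted p = 3.07e-05) and without either sh1 library (adjusted p = 0.0201 and 0.0198). For mt-Co2, the sh1 call was lost without either NC or either sh4 library (adjusted p between 0.0650 and 0.118), and the sh4 fold change passed without either sh1 library (adjusted p = 0.00115 and 0.000873). The mt-Co3 call in sh4 was lost without any 1 of the NC or sh4 libraries (adjusted p between 0.0613 and 0.215). With all 6 libraries, the mt-Co3 call in sh4 was also lost with a pseudocount of 0.1, no filter, voom, no robust option or the variance trend on mean log2 FPKM (adjusted p between 0.0544 and 0.233), which makes 9 of 16 alternatives. The mt-Co2 call in sh1 was also lost with voom on recovered reads (adjusted p = 0.0758). mt-Co1 passed in sh4 under equal FPKM sums, with a fold change of 0.31 (adjusted p = 0.00110), with the filter at a mean of 5 FPKM (adjusted p = 0.0434) and with no robust option (adjusted p = 0.0128).

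Of the ATP synthase mRNAs, mt-Atp6 encodes the subunit that carries the proton path beside the rotor. It measured 11.0 and 13.2 FPKM in NC, 28.3 and 37.6 in sh1, and 35.6 and 28.0 in sh4. Both knockdown groups lay above NC and overlapped each other, with rises of 1.37 (SE 0.15, adjusted p = 1.73e-05) and 1.32 (adjusted p = 2.24e-05).

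**Figure D4:**
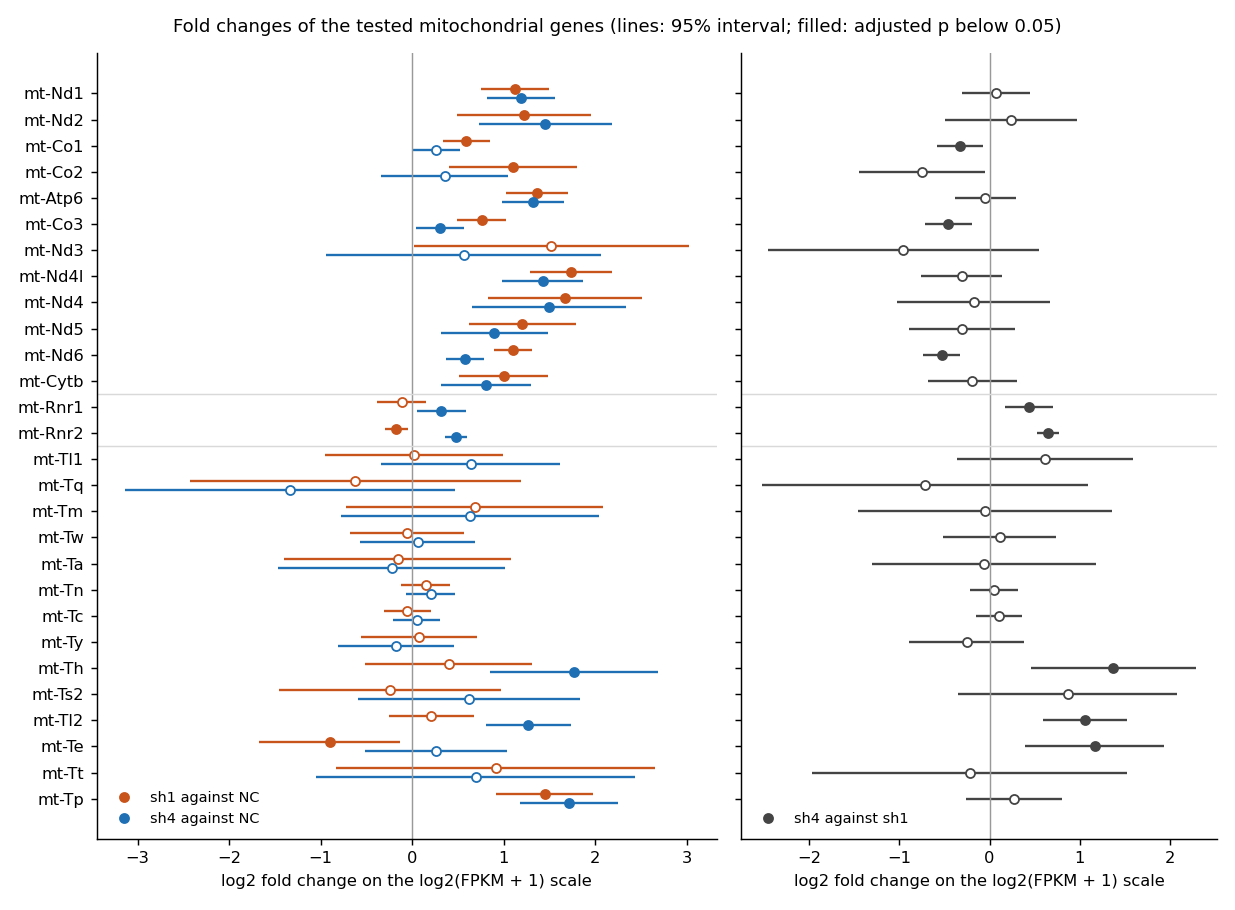
Log2 fold changes on the log2(FPKM + 1) scale for the 28 tested mitochondrial genes, with lines for the 95% interval and filled points where the adjusted p was below 0.05. The mRNAs lie to the right of 0 in sh1 and sh4, with mt-Co1 lowest in both at 0.59 and 0.26, and the rRNAs lie on either side of it.

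The make-up of the mRNA pool differed between groups along with its size. mt-Co1 held 49.6% and 47.9% of the summed FPKM of the 13 mRNAs in NC, 39.6% and 39.1% in sh1, and 37.0% and 35.0% in sh4. mt-Nd1 held 12.5% and 12.4% in NC, 14.4% and 14.7% in sh1, and 17.4% and 17.6% in sh4. For both genes the 3 groups did not overlap. The ratio of mt-Co1 to mt-Nd1, which does not depend on how libraries were scaled, was 3.97 and 3.85 in NC, 2.74 and 2.67 in sh1, and 2.13 and 1.99 in sh4. mt-Nd2 went from 5.31% and 6.06% in NC to 6.91% and 7.31% in sh1 and 9.26% and 9.90% in sh4. mt-Cytb held between 16.9% and 18.8% in all 6 libraries. These shares and ratios are given as values and were not tested.

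**Figure D5:**
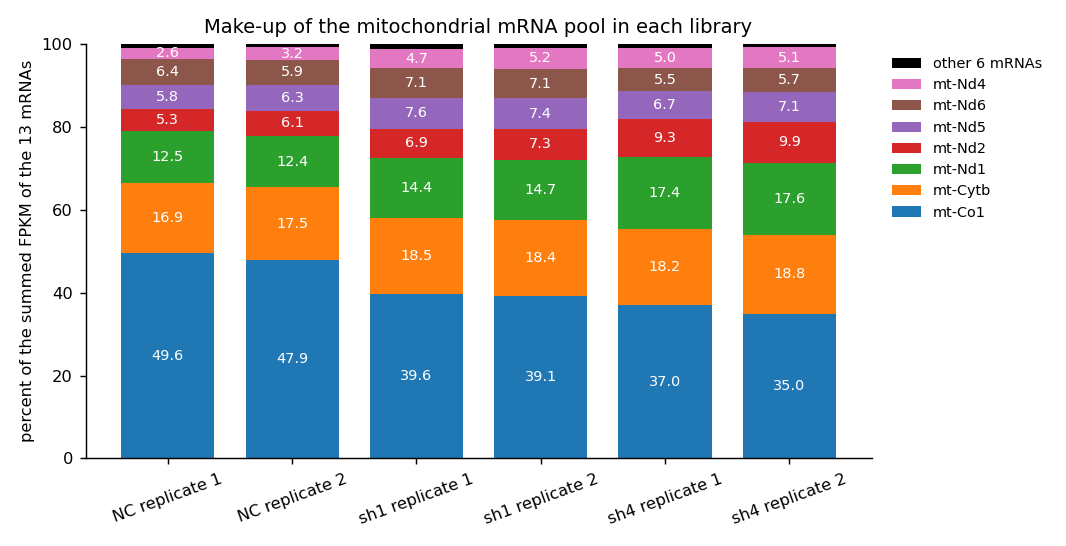
Percent of the summed FPKM of the 13 mitochondrial mRNAs held by each mRNA, as 1 stacked bar for each library. The mt-Co1 part is between 47.9% and 49.6% in NC and between 35.0% and 39.6% in the other 4 libraries.

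Compared directly, sh4 and sh1 differed in 3 of the 12 tested mRNAs, all lower in sh4, where 56.0% of all tested identifiers differed (26.4% lower and 29.5% higher). Without regard to the test, 6 of the 12 mRNAs had both sh4 libraries below both sh1 libraries, 1 (mt-Nd2) had them above and 5 overlapped, against 38.2% below and 39.9% above over all identifiers. The 3 called mRNAs were mt-Nd6 with a log2 fold change of −0.53 (SE 0.09, adjusted p = 0.00123), mt-Co3 with −0.45 (adjusted p = 0.00622) and mt-Co1 with −0.33 (adjusted p = 0.0396). The mt-Co1 call was lost with scaling by total reads (−0.24, adjusted p = 0.128), a pseudocount of 0.1 (0.0682), no filter (0.102) or voom (0.178), and without sh1 replicate 2 (adjusted p = 0.0606), sh4 replicate 1 (0.278) or sh4 replicate 2 (0.252). The mt-Co3 call was lost without sh1 replicate 2 (adjusted p = 0.117) or sh4 replicate 2 (0.0604), or with no filter (0.111). For mt-Nd1 the difference was 0.07, with a 95% interval of −0.30 to 0.44, and for mt-Atp6 it was −0.05, with an interval of −0.38 to 0.29. Among all identifiers called between sh4 and sh1, 52.8% were higher in sh4 on the deposited scale, 62.1% after scaling by total reads and 67.0% after setting the FPKM sums equal. The mRNA count itself also moved: it was 6 without NC replicate 1, 5 without NC replicate 2 and 1 without sh4 replicate 2. Among the calls added without NC replicate 1 were mt-Nd5 and mt-Cytb, both lower in sh4, and mt-Nd2, higher by 0.23. Their fold changes were the same as with all 6 libraries, since NC does not enter this comparison. The mt-Co2 difference was not called in the main test (−0.74, adjusted p = 0.0702). It was −0.39 without sh1 replicate 1 and −1.10 without sh1 replicate 2, and passed in both cases. With no robust option it passed as well. For mt-Nd3 the difference was −1.80 without sh1 replicate 2, where it passed, and over the 16 alternatives it ranged from −1.80 to −0.10.

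The rRNAs did not follow the mRNAs in sh1. mt-Rnr1, the RNA of the small ribosomal subunit, measured 130 and 165 FPKM in NC, 127 and 144 in sh1, and 187 and 180 in sh4. Its sh1 and NC libraries overlapped (log2 fold change −0.12, adjusted p = 0.395), and it rose by 0.32 (adjusted p = 0.0381) in sh4. mt-Rnr2 (ENSMUSG00000064339), the RNA of the large subunit, measured 114 and 124 FPKM in NC, 103 and 108 in sh1, and 173 and 159 in sh4. It fell by 0.17 (SE 0.06, adjusted p = 0.0170) in sh1, where both libraries lay below NC as for 41.8% of all identifiers, and rose by 0.48 (adjusted p = 6.41e-06) in sh4. Between sh4 and sh1 the difference was 0.44 (adjusted p = 0.0133) for mt-Rnr1 and 0.65 (adjusted p = 5.33e-07) for mt-Rnr2. The mt-Rnr2 fall in sh1 did not pass without NC replicate 2 (−0.11, adjusted p = 0.175) or sh1 replicate 1 (−0.14, adjusted p = 0.137), nor with no filter (adjusted p = 0.136) or the variance trend on mean log2 FPKM (0.0556). For mt-Rnr1, the sh1 change was −0.29 without NC replicate 1 (adjusted p = 0.00461) and 0.05 without NC replicate 2. Its sh4 change was 0.15 without NC replicate 1 (adjusted p = 0.0988), with adjusted p of 0.216 and 0.159 without sh4 replicate 1 or 2. Without those same libraries the difference of mt-Rnr1 between sh4 and sh1 had adjusted p of 0.129 and 0.0974. With all 6 libraries, the mt-Rnr1 rise in sh4 was lost with no filter, the filter at a mean of 5 FPKM or the variance trend on mean log2 FPKM (adjusted p between 0.0588 and 0.147), and its difference from sh1 with no filter (0.0819).

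Both rRNAs stood below mt-Nd1, the gene that follows mt-Rnr2 on the heavy strand with 1 tRNA between them. The ratio of mt-Nd1 to mt-Rnr2 was 8.71 and 10.1 in NC, 22.3 and 23.7 in sh1, and 14.1 and 16.7 in sh4, with no overlap between groups. How ribosomal or polyadenylated RNA was selected in library making is not given in the sources used here, so rRNA levels are compared here between libraries and not with mRNAs as amounts in the cell. Whether that step differed between libraries is not known either, and its part in the rRNA differences was not tested.

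Of the 22 tRNAs, 14 passed the filter, 2 (mt-Tv and mt-Ti) were above 0 but did not pass, and 6 had 0 reads in all 6 libraries (mt-Tf, mt-Ts1, mt-Td, mt-Tk, mt-Tg and mt-Tr). Mature tRNAs are short, folded and modified, and standard RNA libraries recover them poorly. In sh1, 1 of the 14 was higher and 1 lower than in NC, where 32.4% of all identifiers were higher and 33.2% lower. In sh4, 3 were higher and 0 lower, and without NC replicate 2 it was 5 higher and 1 lower. Over all identifiers, 35.0% were higher and 33.2% lower in sh4. The main shares were below those over all identifiers tested, with few reads behind most tRNAs.

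mt-Tp (ENSMUSG00000064372), the proline tRNA of the light strand, had the most reads of the tRNAs that changed. It measured 122 and 136 FPKM in NC, 289 and 432 in sh1, and 375 and 483 in sh4, from between 129 and 594 reads. Both knockdown groups lay above NC, with rises of 1.45 (SE 0.22, adjusted p = 0.00136) and 1.72 (adjusted p = 0.00059). Between sh4 and sh1 mt-Tp did not pass (0.27, adjusted p = 0.340), and without sh1 replicate 2 it did (0.56, adjusted p = 0.00788). Its ratio to mt-Cytb was 0.091 and 0.077 in NC, 0.098 and 0.135 in sh1, and 0.147 and 0.170 in sh4. The other 2 tRNAs near 100 FPKM, mt-Tn for asparagine and mt-Tc for cysteine, are also on the light strand. mt-Tn measured 86.5 and 109 FPKM in NC, 105 and 110 in sh1, and 117 and 107 in sh4. mt-Tc measured 106 and 129, 119 and 107, and 121 and 121 FPKM. Neither passed the test, with 95% intervals in sh4 of −0.06 to 0.47 for mt-Tn and −0.21 to 0.30 for mt-Tc.

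The remaining calls rested on fewer reads. mt-Tl2, a leucine tRNA, measured 14.3 and 11.9 FPKM in NC, 12.6 and 18.4 in sh1, and 33.6 and 32.2 in sh4. It rose by 1.27 (adjusted p = 0.000163) in sh4 and differed by 1.06 between sh4 and sh1 (adjusted p = 0.000982). mt-Th, the histidine tRNA, had 2 and 1 reads in NC, 3 and 2 in sh1, and 11 and 7 in sh4, with a log2 fold change of 1.77 in sh4 (adjusted p = 0.00227). Without sh4 replicate 1 this was 1.49 (adjusted p = 0.0571). mt-Te, the glutamate tRNA, had 9 and 23 reads in NC, 8 and 8 in sh1, and 18 and 24 in sh4. It fell by 0.90 in sh1 (adjusted p = 0.0401), and without NC replicate 2, the library with 23 reads, the change was −0.26 (adjusted p = 0.549). Each sh1 or sh4 library left out also ended that call of mt-Te, with adjusted p between 0.0590 and 0.128. With all 6 libraries the mt-Te fall was lost with a pseudocount of 0.1, no filter, the filter at a mean of 5 FPKM, voom, no robust option or the other variance trend (adjusted p between 0.0513 and 0.232), so it held in 5 of 16 alternatives. In sh4 against NC, mt-Te had a fold change of 0.91 without NC replicate 2 (adjusted p = 0.0367) and −0.39 without NC replicate 1.

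The other 8 tRNAs that passed the filter were called in no comparison. mt-Tl1, another leucine tRNA, ranged from 7.57 to 26.2 FPKM over the 6 libraries, mt-Tw (tryptophan) from 11.4 to 19.4 and mt-Ty (tyrosine) from 7.32 to 12.7. mt-Ts2, a serine tRNA, ranged from 2.15 to 12.9 FPKM and mt-Ta (alanine) from 0.790 to 2.60. mt-Tq (glutamine), mt-Tm (methionine) and mt-Tt (threonine) were at 0 in at least 1 library and reached 5.35, 1.65 and 2.54 FPKM. In all 8 the sh1 and sh4 libraries overlapped those of NC, on at most 36 reads in a library. Over all tested identifiers, 40.5% lay wholly above NC and 41.8% wholly below it in sh1, and 41.8% wholly above it in sh4.

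Replicates of the mRNAs also differed together. In NC, 11 of the 12 tested mRNAs were higher in replicate 2 than in replicate 1, by a median of 0.32 log2 units, where the median over all identifiers was −0.01. In sh1, 10 of 12 were higher in replicate 2 by a median of 0.14, and in sh4, 8 of 12 by a median of 0.13. For each of the 12 mRNAs, both libraries of sh1 and both of sh4 lay above the higher NC library. Over all tested identifiers such a separation was found for 40.5% in sh1 and 41.8% in sh4.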

How the data were processed

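Total RNA was sequenced in 6 libraries, 2 in each of NC, sh1 and sh4, as the labels name them. The authors deposited 1 FPKM value per gene and library; alignment used HISAT2 2.0.5 and the build hg18, per the submitters' processing notes, while for the counter, annotation and strand setting nothing is given in the sources used here. For 25747 of 25747 identifiers above 0, whole reads and a whole length rebuilt the deposited FPKM (tolerance 1e-06 FPKM plus 2e-09 of the value). The library denominators equalled median-of-ratios size factors within 2.72e-09 percent, so the deposited FPKM already hold the typical gene constant between libraries. One read in a gene of a kilobase is worth between 0.0541 and 0.0652 FPKM.

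Values were compared as log2(FPKM + 1) with limma 3.58.1 (run under R 4.3.3), a scale that understates changes of low genes. A single model with 3 residual degrees of freedom took in the 6 libraries together. It covered the 12755 identifiers that reached 1 FPKM in 2 or more of them, with robust empirical Bayes, a variance trend on recovered reads and Benjamini-Hochberg adjustment at 0.05. The procedure was also run on simulated data in which few genes changed, by the same amount in both knockdown groups. That setting differs from these data, so the run cannot vouch for the calls. All mRNAs, rRNAs and tRNAs that passed the filter are named with values, and the other tRNAs are counted and listed. The 16 planned lists of nuclear genes and cell markers (314 symbols) matched 0 identifiers and were not analysed. The members and lists were chosen with earlier results of these data known. The 16 alternatives varied the pseudocount, filter, scaling, block, model and libraries. Leaving out 1 library leaves a group with a lone sample, assumed to vary like the others. A comparison between the other groups then keeps its fold changes, while the estimated spread and the adjusted p can move.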

Additional observations from a re-analysis of the deposited data

Results flagged for a closer look

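In 8 mitochondrial genes the changes of sh4 and sh1 against NC were unequal, with an adjusted p below 0.05 in limma's test of sh4 against sh1. On the log2 scale the sh4 change minus the sh1 change was 0.44 for mt-Rnr1 and 0.65 for mt-Rnr2, the 2 rRNAs. It was −0.33 for mt-Co1, −0.45 for mt-Co3 and −0.53 for mt-Nd6, mRNAs that were less high in sh4. It was 1.37 for mt-Th, 1.06 for mt-Tl2 and 1.16 for mt-Te, tRNAs of which mt-Th rested on at most 11 reads a library and mt-Te on at most 24. Such differences were common, since 56.0% of all tested identifiers passed in the same comparison. The differences of mt-Rnr2, mt-Tl2 and mt-Nd6 were still called with each library left out in turn. The mt-Te difference was lost without sh1 replicate 1 or 2 or sh4 replicate 2 (adjusted p between 0.0525 and 0.120) and with no filter, voom or the variance trend on mean log2 FPKM (between 0.0504 and 0.154), and the mt-Th difference without sh1 replicate 2 or sh4 replicate 1 (adjusted p = 0.102 and 0.172) or with a pseudocount of 0.1 (0.124) or voom (0.0602). Those of mt-Co1, mt-Co3 and mt-Rnr1 were lost without the libraries or under the settings named beside them above. No cause was tested.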

How the results depend on the processing

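Over the 16 alternatives, the 23 called mRNA results kept direction and call in 329 of 368 cases and direction alone in the other 39. For the rRNAs these numbers were 67 and 13 of 80, and for the 4 tRNAs called in any comparison 104 and 22 of 126. The other 10 tested tRNAs passed in 6 of 450 cases. The number of mRNAs called in sh4 against NC ranged from 4 to 12 when single libraries were left out. In sh4 against sh1 it was 3, and became 1 with no filter, 5 without the robust option and 1 to 6 with single libraries left out. Counted in recovered reads, the 13 mRNAs held 1.21% in NC, 2.09% in sh1 and 1.91% in sh4. The sh4 against sh1 difference of mt-Atp6 changed sign, to 0.033 with total reads, 0.074 with equal FPKM sums, 0.072 with equal sums over the other identifiers and 0.031 with voom on recovered reads. With single libraries left out, it ranged from −0.24 to 0.15. Sign changes also arose for mt-Nd1 (−0.0081 to 0.147) and mt-Tp (−0.0216 to 0.559) in sh4 against sh1, for mt-Rnr1 (−0.287 to 0.0535) and mt-Tl2 (−0.0430 to 0.464) in sh1 and for mt-Te in sh4 (−0.39 to 0.91), where fewer libraries entered. The causes of the other changes were not tested. Equal FPKM sums shifted the median of all identifiers between sh4 and sh1 to 0.10. With the replicate number as a block, 5 mRNAs were called in sh4 against sh1, adding mt-Nd5 (adjusted p = 0.0113) and mt-Cytb (0.0173), and the block also called mt-Co1 in sh4 against NC (0.000743) and mt-Tp in sh4 against sh1 (0.0293) and called 10 in place of 11 mRNAs for the mean of both groups, with no other call changed among the mRNAs, rRNAs and these tRNAs. The numbers were not taken to pair samples: over all tested identifiers, same-numbered libraries correlated at −0.01, 0.12 and −0.02. Most of the mRNAs were higher in replicate 2 within each group, 11, 10 and 8 of 12 in NC, sh1 and sh4. With the block, the SE in sh1 against NC went from 0.137 to 0.050 for mt-Nd1 and from 0.151 to 0.159 for mt-Atp6. mt-Atp8 had at most 4 reads a library.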
